A study of Homo sapiens with 6 samples.

Results

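Epithelial cells hold on to one another through adherens junctions, desmosomes and tight junctions, and 44 genes that build these structures, set their place in the cell or control their expression are described here in the human gastric cancer line NCI-N87. The members were taken by gene name: 10 genes of adherens junctions and nectins, 12 of desmosomes and their plakin linkers, 7 of the tight junction core, 8 claudins, 3 polarity genes and 4 epithelial regulators. All 44 were found once each among the 58735 genes of the count table. NCI-N87 is an established line with many copies of ERBB2. RNA was sequenced from 3 libraries of cells transfected with the plasmid PLVX-IRES-Puro-EGLN3, which carries EGLN3, a prolyl hydroxylase that acts on hypoxia-inducible factors, and from 3 libraries given empty PLVX-IRES-Puro. Labels give 1 day of plasmid treatment for 5 libraries and 5 days for EGLN3 replicate 3, each followed by 7 days of puromycin screening. The labels name no single clone and no culture for each replicate, so the p-values below rest on the spread among 6 libraries, and that spread may be technical.

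Cadherins bridge neighbouring cells through their outer domains and are tied to the cytoskeleton by catenins, and desmosomal cadherins are tied to keratin filaments by plakoglobin, plakophilins and desmoplakin. Claudins and occludin seal the space between cells near the apical surface, where zonula occludens scaffolds anchor them. Grainyhead-like factors maintain the transcription of many of these genes, ESRP proteins keep epithelial splicing in place, and SNAIL, ZEB and TWIST factors are known repressors of E-cadherin, a gene often lost or mutated in diffuse gastric cancer.

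The plasmid gene itself separated the groups. EGLN3 had 10, 11 and 9 counts with the empty plasmid and 7298, 27674 and 27494 counts with the EGLN3 plasmid (replicates 1 to 3), a log2 fold change of 11 (SE 0.72; edgeR quasi-likelihood test, adjusted p = 0.031). Library totals lay between 15157265 and 16767383 counts. The leading principal component of log2 CPM (counts scaled to library size) held 70% of the variance and did not separate the groups: control replicate 1 and EGLN3 replicates 2 and 3 lay on one side, the other libraries on the opposite side.

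The label of an epithelial line matched the markers, that of stomach less so. The keratins KRT8, KRT18 and KRT19 averaged 2719, 1747 and 3610 FPKM in controls (FPKM, a level corrected for gene length and library size). Of 15 mesenchymal or fibroblast markers 13 averaged under 1 FPKM in both groups, with CDH2, COL1A2 and LUM at 0 counts in all libraries, and the list's summed level ran from 235 to 456 FPKM in controls and from 212 to 553 FPKM with EGLN3, mostly S100A4. Of 7 leukocyte markers 5 averaged under 1 FPKM, with sums of 2.91 to 3.78 FPKM in controls and 3.22 to 3.44 FPKM with EGLN3. The 5 endothelial markers all averaged under 1 FPKM and summed to at most 0.269 FPKM in any library. All 6 gastric markers, among them TFF1, MUC5AC and GKN1, averaged under 1 FPKM in both groups, as did 5 of 7 intestinal markers, and the other two, CDX2 and MUC13, averaged 9.46 and 3.44 FPKM in controls.

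Most junction genes were clearly expressed, and a few dominated. In controls 3 members averaged over 100 FPKM, 29 lay between 10 and 100, 7 between 1 and 10, and 5 below 1. JUP (plakoglobin, chromosome 17, 41754604 to 41786931, minus strand) stood first at 604 ± 29.4 FPKM in controls (SD, n = 3) and 570 ± 52.5 FPKM with EGLN3 (SD, n = 3). CLDN4 followed at 166 ± 25.9 FPKM and the adhesion molecule EPCAM at 161 ± 16 FPKM in controls (SD, n = 3). The lowest JUP library was above the highest CLDN4 library, whereas CLDN4 and EPCAM overlapped. EPCAM was in turn above CLDN7 in each of the 6 libraries without overlap. Of the 43 neighbouring pairs in the order of levels, 5 had ranges over the 6 libraries that did not overlap, among them OCLN above PARD6B, and 13, these included, kept their order in every library, such as CLDN7 above PKP3 and CDH1 above CTNND1.

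**Figure D1:**
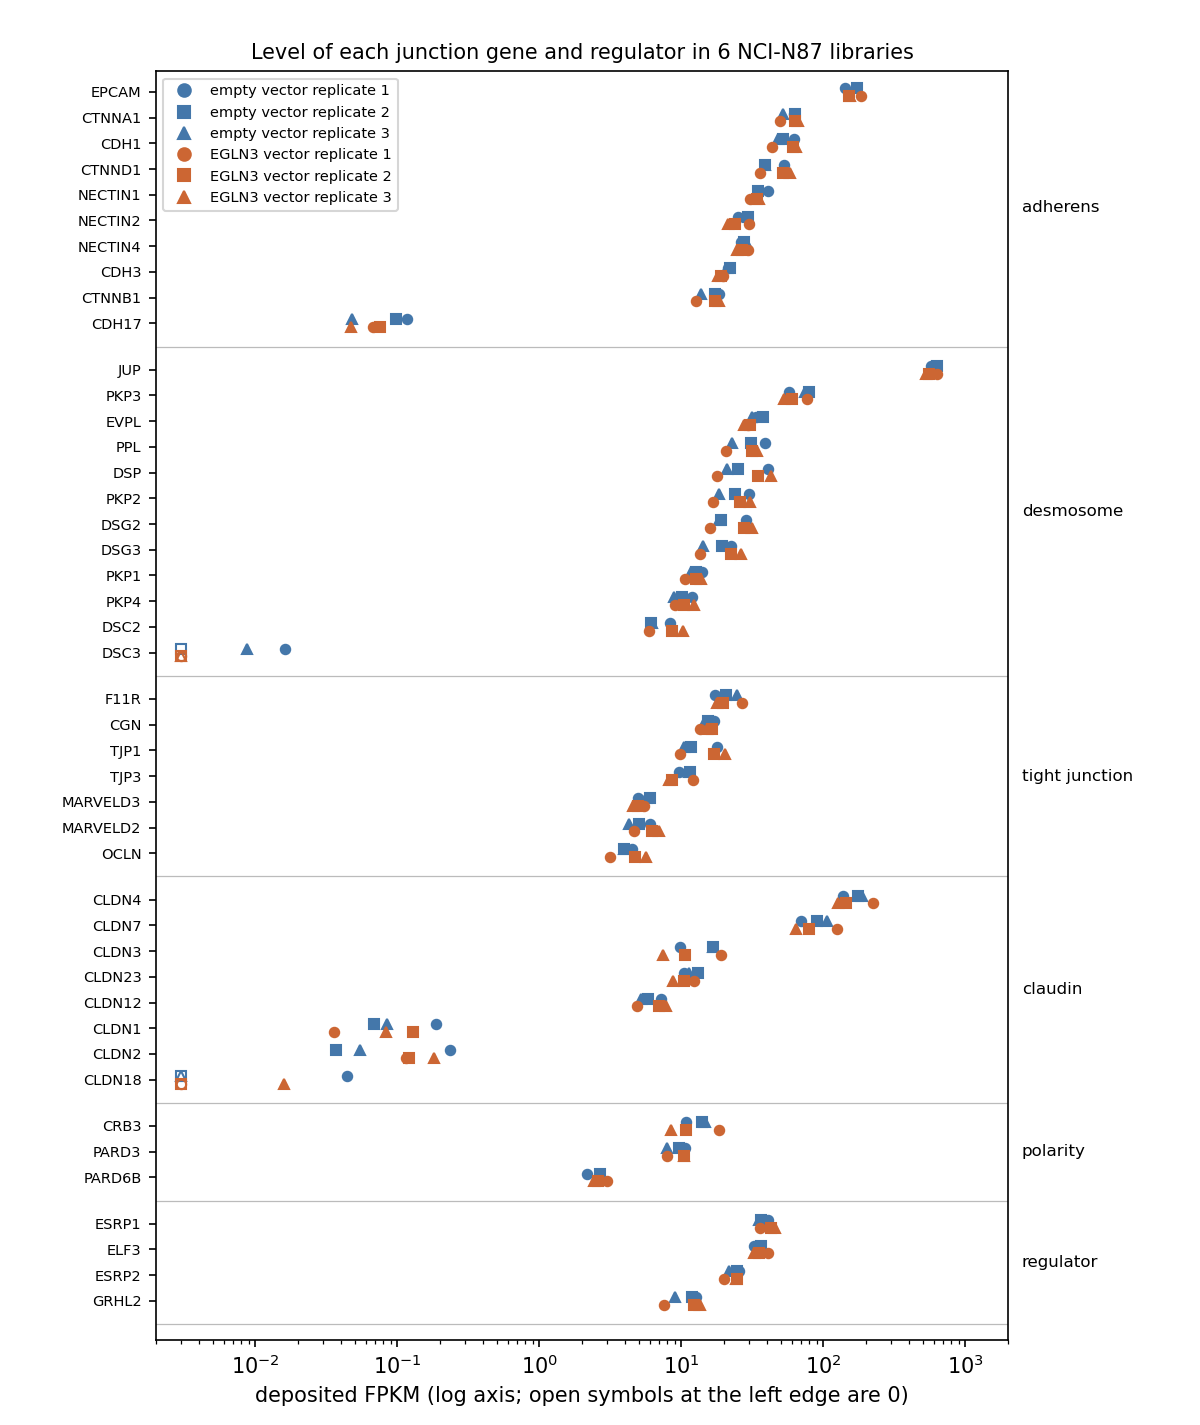
Deposited FPKM of the 44 members on a log axis, 1 symbol per library, blue for the empty plasmid and orange for the EGLN3 plasmid, grouped by role and ordered by the control mean. JUP stands apart at the top, and CDH17, DSC3, CLDN1, CLDN2 and CLDN18 lie below 1 FPKM in every library.

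In the adherens junction class EPCAM was highest, followed by CTNNA1 and E-cadherin. CDH1 (E-cadherin, chromosome 16, 68737225 to 68835548, plus strand) averaged 54.1 ± 7.11 FPKM in controls (SD, n = 3), and its neighbour CDH3 (P-cadherin, chromosome 16, 68636189 to 68722616, plus strand) 21.5 ± 0.434 FPKM. The catenins CTNNA1, CTNND1 and CTNNB1, which link cadherins to actin, stabilise them at the membrane or bind their tail, averaged 58.9, 43.5 and 16.5 FPKM. Of the nectins, immunoglobulin-like molecules that start cell contacts, the members NECTIN1, NECTIN2 and NECTIN4 averaged 36.5, 28.1 and 27.4 FPKM in controls. NECTIN3, not a member, averaged 1.02 FPKM in controls.

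Desmosomes were represented by DSG2, DSG3 and DSC2, with DSC3 at or near 0. The desmogleins DSG2 and DSG3 averaged 22 and 18.7 FPKM and the desmocollin DSC2 6.91 FPKM in controls. DSC3 had 2, 0 and 1 counts in controls and 0 in each EGLN3 library. There 3 counts would be 0.181 to 0.198 CPM from library totals alone, without the scaling factors that other CPM values here carry. That is the limit that a count of 0 allows for counting error alone. Reads carried no molecular identifiers in the sources used here, so such limits do not cover other error. Among plaque proteins, PKP3 was at 70.8 FPKM, against 24.1 for PKP2, 12.9 for PKP1 and 10.3 for PKP4. The plakins EVPL, PPL and DSP, which connect the plaque to keratins or to the cornified envelope, were at 34.2, 31 and 29 FPKM.

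Claudin expression rested on CLDN4 and CLDN7. CLDN7 averaged 88.6 ± 18.2 FPKM in controls (SD, n = 3), CLDN3 14.4, CLDN23 11.7 and CLDN12 6.08. CLDN18, a claudin of normal stomach and a drug target in gastric cancer, had 3, 0 and 0 counts in controls and 0, 0 and 1 with EGLN3, and these gene counts do not separate its isoforms. The pore-forming CLDN2 had 14, 2 and 3 counts against 6, 7 and 10, and CLDN1 12, 4 and 5 against 2, 8 and 5. The intestinal cadherin CDH17 had 8, 6 and 3 counts against 4, 5 and 3. These 4 genes and DSC3 were below the filter on low counts, so 39 of the 44 members were tested.

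The tight junction core, polarity genes and regulators were expressed at moderate levels. F11R, a junctional adhesion molecule, and CGN (cingulin), which links tight junctions to actomyosin, averaged 20.8 and 15.8 FPKM in controls. The scaffolds TJP1 and TJP3 were at 13.4 and 10.8 FPKM. The membrane proteins MARVELD3, MARVELD2 (tricellulin) and OCLN (occludin) were at 5.58, 5.09 and 4.13 FPKM. CRB3, PARD3 and PARD6B, which mark and organise the apical side, were at 13.1, 9.4 and 2.5 FPKM. ESRP1 was the highest regulator at 37.6 FPKM, followed by the ETS factor ELF3 at 35.1, ESRP2 at 24.1 and GRHL2 at 11.3 FPKM.

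No junction gene or regulator was called between the groups. By edgeR's quasi-likelihood fit, 0 of the 39 tested members reached an adjusted p under 0.05 and 0 an unadjusted p under 0.05. Over all 15726 tested genes, 0.00636% were called and 1.11% had an unadjusted p under 0.05. DESeq2 and limma-voom also called 0 members, with 0 at an unadjusted p under 0.05 in each, but DESeq2 called 1 gene of all tested and limma-voom 0, so these counts say little about the members. The median log2 fold change of the tested members was 0.01, with 20 above 0 and 19 below, beside 0.01 over all tested genes and 52.2% of genes above 0. Member values ran from -0.23 for CLDN3 to 0.26 for DSC2, and each had an edgeR adjusted p that rounds to 1. The intervals were wide: the median SE was 0.20, and 36 of the 39 intervals (95%) lay between -1 and 1 on the log2 scale. In bulk libraries, fewer cells of a kind and less RNA per cell cannot be told apart. The share of all genes called was equally low with no filter (0.00306%), with at least 1 CPM in 3 libraries (0.0069%) and on log2(FPKM + 0.1) values (0.00655%).

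A 2nd fit, called the corrected fit, had narrower intervals. Smooth trends of each library on transcript GC content and on length were taken out of the counts, with no term for group. A group difference that follows GC content or length could thus be removed with them. The model also had 1 surrogate variable, a per-library term estimated from the same counts. The trends and this variable are then treated as known, so the fit's SEs and p-values may be too small. It called 0 of the 39 members, while 0.96% of all tested genes were called (0.324% higher and 0.636% lower), and 7 members had an unadjusted p under 0.05, beside 13.1% of all tested genes. Member values ran from -0.14 for MARVELD3 to 0.14 for MARVELD2, with a median of 0.01 and a median SE of 0.05, and 23 of 39 were above 0, beside 49.1% of all tested genes. The 7 were TJP1, CDH3, ELF3, CLDN7, DSC2, CTNNB1 and CTNND1, and the smallest edgeR adjusted p among members was 0.17, for TJP1. The interval reaching farthest from 0 ended at -0.30, for CLDN3. Of the 39, 13 had opposite signs in the uncorrected and corrected fits. The corrected fit also called 0 members by limma-voom, where 0.706% of all genes were called, and 0 members without any 1 library, where the share of all genes called was 1.11%, 0.947% and 1.07% without control replicates 1, 2 and 3 and 0.305%, 0.362% and 0.324% without EGLN3 replicates 1, 2 and 3.

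**Figure D2:**
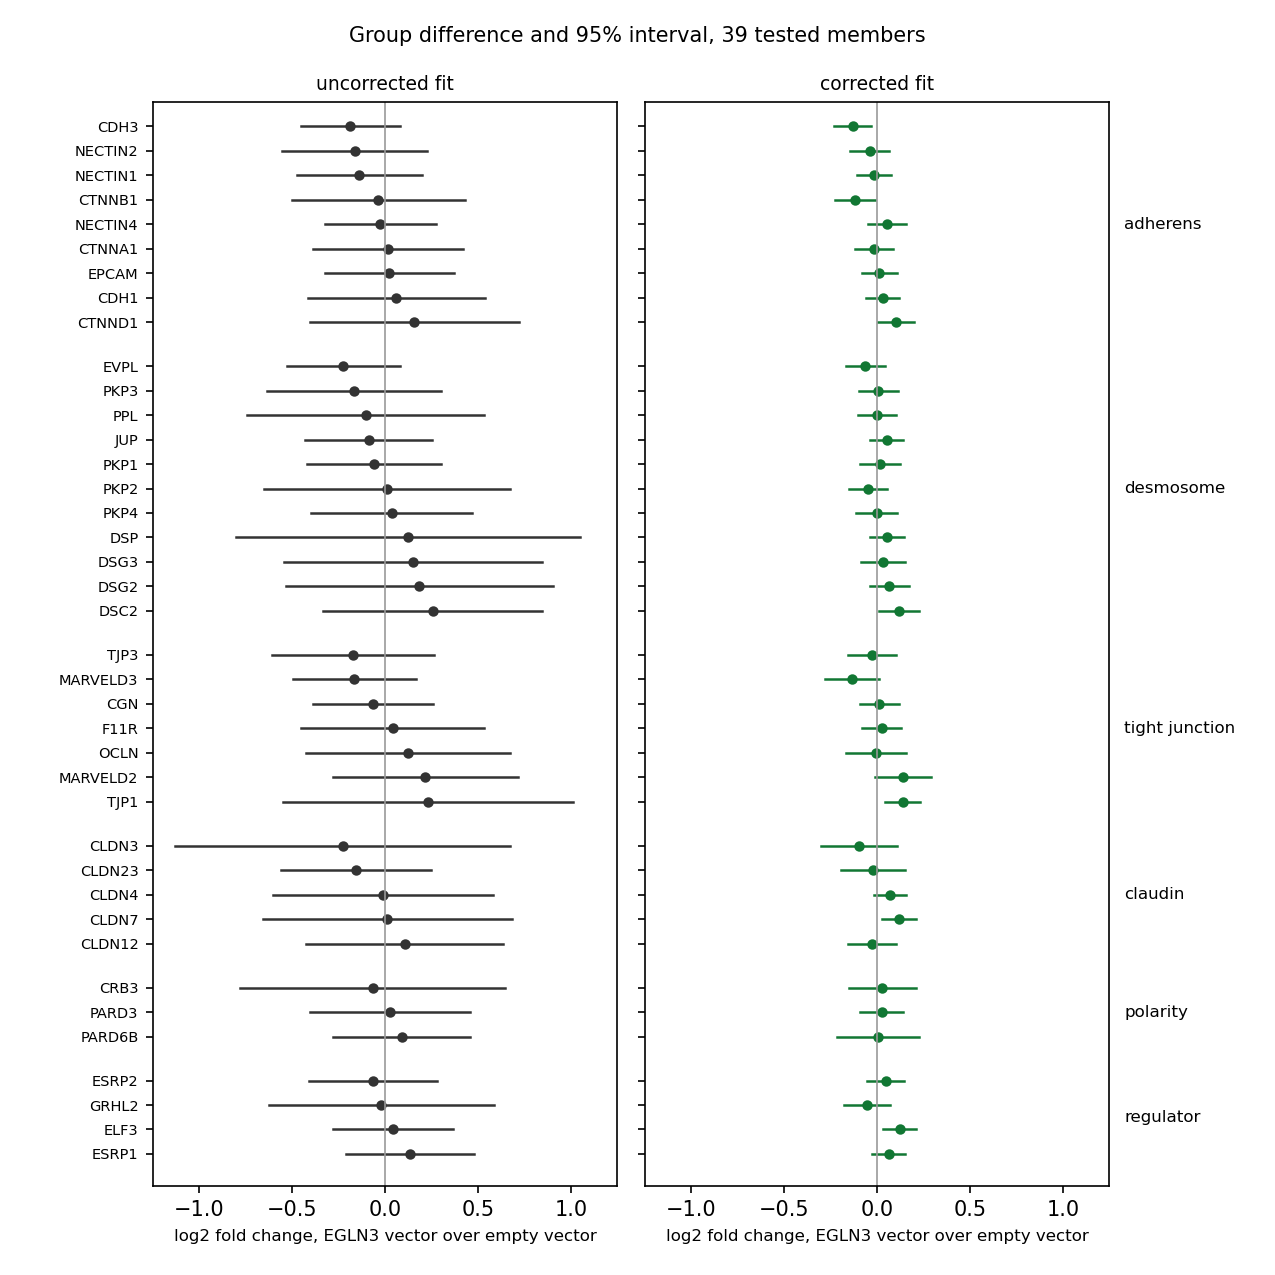
Log2 fold change of EGLN3 over empty plasmid for the 39 tested members, as points with 95% intervals, in the uncorrected fit (left, edgeR with no covariate) and the corrected fit (right). Uncorrected values lie between -0.23 and 0.26 and all their intervals cross 0, and the corrected intervals, which may be too narrow, all lie within 0.30 of 0.

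In adherens junctions 4 of the 9 tested members were above 0 and 5 below, with E-cadherin near 0 and P-cadherin lower in each EGLN3 library than in any control. Over all tested genes 3.62% were likewise lower without overlap. CDH1 measured 389.6, 324 and 300.8 CPM in controls and 269.2, 383.9 and 405.1 CPM with EGLN3. The groups overlapped fully, with EGLN3 replicate 1 the lowest library and EGLN3 replicate 3 the highest. Its log2 fold change was 0.06 (95% interval -0.42 to 0.54), and 0.03 (-0.06 to 0.12) in the corrected fit. CDH3 measured 135.8, 138.2 and 132.9 CPM in controls and 123.3, 118.9 and 115.3 CPM with EGLN3. CDH3 varied less between libraries than its neighbour CDH1. P-cadherin was at a log2 fold change of -0.19 (SE 0.11; unadjusted p = 0.14 by edgeR), and at -0.13 (SE 0.05; edgeR, adjusted p = 0.21) in the corrected fit. An antisense gene shares 11.1% of the exon bases of CDH3, 1 of 17 members whose exons overlap those of other annotated genes, and whether counting used strand is not stated in the sources used here.

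EPCAM measured 366.1, 438.7 and 427.6 CPM in controls and 467.8, 388.2 and 396.7 CPM with EGLN3, with overlapping groups. Its log2 fold change was 0.02 (95% interval -0.33 to 0.37). CTNNA1 measured 556.8, 559.5 and 462.5 CPM against 440.2, 560.6 and 594.3 CPM, again with EGLN3 replicate 1 lowest. NECTIN2 measured 95.3, 112 and 112 CPM against 113, 90.8 and 81.5 CPM, and here EGLN3 replicate 1 was the highest EGLN3 library. The other 4 tested members of this class had log2 fold changes from -0.14 (NECTIN1) to 0.16 (CTNND1), with SEs of 0.13 to 0.24.

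In desmosomes 6 of the 11 tested members were above 0 and 5 below. EVPL was lower in every EGLN3 library than in any control, and the other 10 overlapped. EVPL (envoplakin, chromosome 17, 76004502 to 76027452, minus strand) measured 255.2, 284.7 and 239.7 CPM in controls and 222.7, 231.9 and 212.5 CPM with EGLN3. EVPL was at a log2 fold change of -0.22 (SE 0.13; unadjusted p = 0.12 by edgeR), and at -0.06 (SE 0.05; edgeR, adjusted p = 0.66) in the corrected fit. EVPL and CDH3 were the 2 members whose groups did not overlap, both lower; over all tested genes 6.26% did not overlap, 3.62% lower and 2.64% higher. Both were also the members called when the surrogate variable was used without the GC and length trends, at -0.22 and -0.18 (edgeR, adjusted p = 0.024 and 0.039), where 4.71% of all tested genes were called, 3.6% lower and 1.11% higher. JUP measured 2884, 3153 and 3027 CPM in controls and 3118, 2762 and 2647 CPM with EGLN3, a log2 fold change of -0.09 (SE 0.14). PKP3 measured 222.6, 305.4 and 285.9 CPM against 292.7, 228.4 and 202.3 CPM. DSC2 measured 106.8, 76.8 and 78.5 CPM against 73.9, 108.1 and 131.2 CPM, with EGLN3 replicate 1 below every control. Its log2 fold change of 0.26 (SE 0.25) was the highest of the members.

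In the tight junction core the groups overlapped for all 7 members, 4 above 0 and 3 below. Overlap is usual here, as only 6.26% of all tested genes had groups that did not overlap. MARVELD2 measured 32.6, 27.2 and 23.1 CPM in controls and 25, 33.5 and 37.8 CPM with EGLN3, a log2 fold change of 0.22 (SE 0.21). MARVELD3 measured 32.6, 39.5 and 37 CPM against 35.5, 32.1 and 29.7 CPM, a log2 fold change of -0.17 (SE 0.14). These MARVEL-domain proteins thus had opposite signs, and neither passed. MARVELD3 shares 16.6% of its exon bases with PHLPP2 on the opposite strand. F11R measured 89, 105 and 126 CPM against 136, 101 and 91.8 CPM, and 36.6% of its exon bases are shared with another annotated protein-coding gene on its own strand, so its division of reads is uncertain. CGN measured 115, 104 and 97.6 CPM against 90.6, 109 and 103 CPM. OCLN was at a log2 fold change of 0.12 (SE 0.23) and TJP3 at -0.17 (SE 0.18).

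Claudins overlapped between groups, as most tested genes did, and EGLN3 replicate 1 was the highest library for CLDN3, CLDN4 and CLDN7. CLDN4 (chromosome 7, 73799542 to 73832693, plus strand) measured 657.1, 826.8 and 888.9 CPM in controls and 1062, 684 and 610.2 CPM with EGLN3. CLDN7 (chromosome 17, 7259903 to 7263983, minus strand) measured 176.2, 227.6 and 265.8 CPM against 313.4, 199.6 and 162 CPM. Their log2 fold changes were -0.01 (SE 0.25) and 0.01 (SE 0.28). CLDN3 measured 12.6, 21.6 and 21.5 CPM against 24.3, 13.6 and 9.68 CPM, a log2 fold change of -0.23 (SE 0.38). CLDN23 measured 23, 28.9 and 25 CPM against 26.7, 22.9 and 19.4 CPM. Without EGLN3 replicate 1 the log2 fold changes were -0.65 for CLDN3, -0.27 for CLDN4, -0.29 for CLDN7 and -0.26 for CLDN23. Without EGLN3 replicate 3 they were 0.03, 0.14, 0.20 and -0.05, with no call in either fit (edgeR). Of all 15726 tested genes these fits called 1 and 0, so the lack of calls says little about claudins. In the corrected fit without EGLN3 replicate 1 the log2 fold changes of these claudins were -0.01, 0.04, 0.14 and -0.02. CLDN12, the claudin of the set with the longest summed exons, was at 0.11 (SE 0.22) and shares exon bases with GTPBP10 and CDK14.

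Polarity genes and regulators also overlapped, as most tested genes did. CRB3 measured 17.4, 22.6 and 23.5 CPM in controls and 29.5, 17.4 and 13.7 CPM with EGLN3. PARD3 measured 70.8, 63 and 52.1 CPM against 51.8, 68.6 and 68.9 CPM, and PARD6B 10.5, 12.7 and 12.6 CPM against 14.2, 12.3 and 11.6 CPM. EGLN3 replicate 1 was thus the highest library for CRB3 and PARD6B and the lowest for PARD3, which bind in a common apical network. ESRP1 measured 202.2, 180.3 and 174.3 CPM against 175.3, 210.9 and 225.1 CPM, a log2 fold change of 0.13 (SE 0.15). ESRP2 measured 144.8, 139.5 and 122.7 CPM against 112.1, 138.6 and 138.3 CPM, and ELF3 237.1, 266.3 and 262 CPM against 292.6, 256.4 and 238.8 CPM. GRHL2 had a log2 fold change of -0.02 (SE 0.25), between 55.5 and 78.9 CPM in controls and between 46.2 and 83 CPM with EGLN3.

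For most junction genes, as for most genes, the EGLN3 libraries differed more among themselves than the groups did. The range over the 3 EGLN3 libraries was larger than the difference between the groups for 37 of the 39 tested members, all but CDH3 and EVPL. The same held for 92.1% of all tested genes, so it is not particular to junction genes. DSP (desmoplakin, chromosome 6, 7541575 to 7586717, plus strand) had the lowest value of EGLN3 replicate 1 relative to replicates 2 and 3, at -1.13 on the log2 scale, and was chosen after its values were seen. It measured 421.2, 256.8 and 212.3 CPM in controls and 179.8, 351.6 and 438.8 CPM with EGLN3. Control replicate 1 and EGLN3 replicates 2 and 3 were high, and EGLN3 replicate 1 and control replicate 3 were low. TJP1 measured 206, 133.4 and 118.2 CPM against 110.9, 193.6 and 232.2 CPM, and DSG2 180.1, 118.8 and 114.9 CPM against 99.7, 171.9 and 198.5 CPM. CLDN3, CLDN7 and CRB3 had the opposite order. Without EGLN3 replicate 3, the library with the label of 5 days, DSP was at a log2 fold change of -0.16 in place of 0.12, CDH1 at -0.05 in place of 0.06 and CLDN7 at 0.20 in place of 0.01. Leaving out a library labelled 1 day moved these genes too. DSP, CDH1 and CLDN7 were at 0.43, 0.24 and -0.29 without EGLN3 replicate 1. Without control replicate 1 the values were 0.46, 0.18 and -0.13. The highest library was 2.44 times the lowest for DSP, 2.51 times for CLDN3 and 2.15 times for CRB3, against 1.2 times for CDH3 and 1.19 times for JUP.

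**Figure D3:**
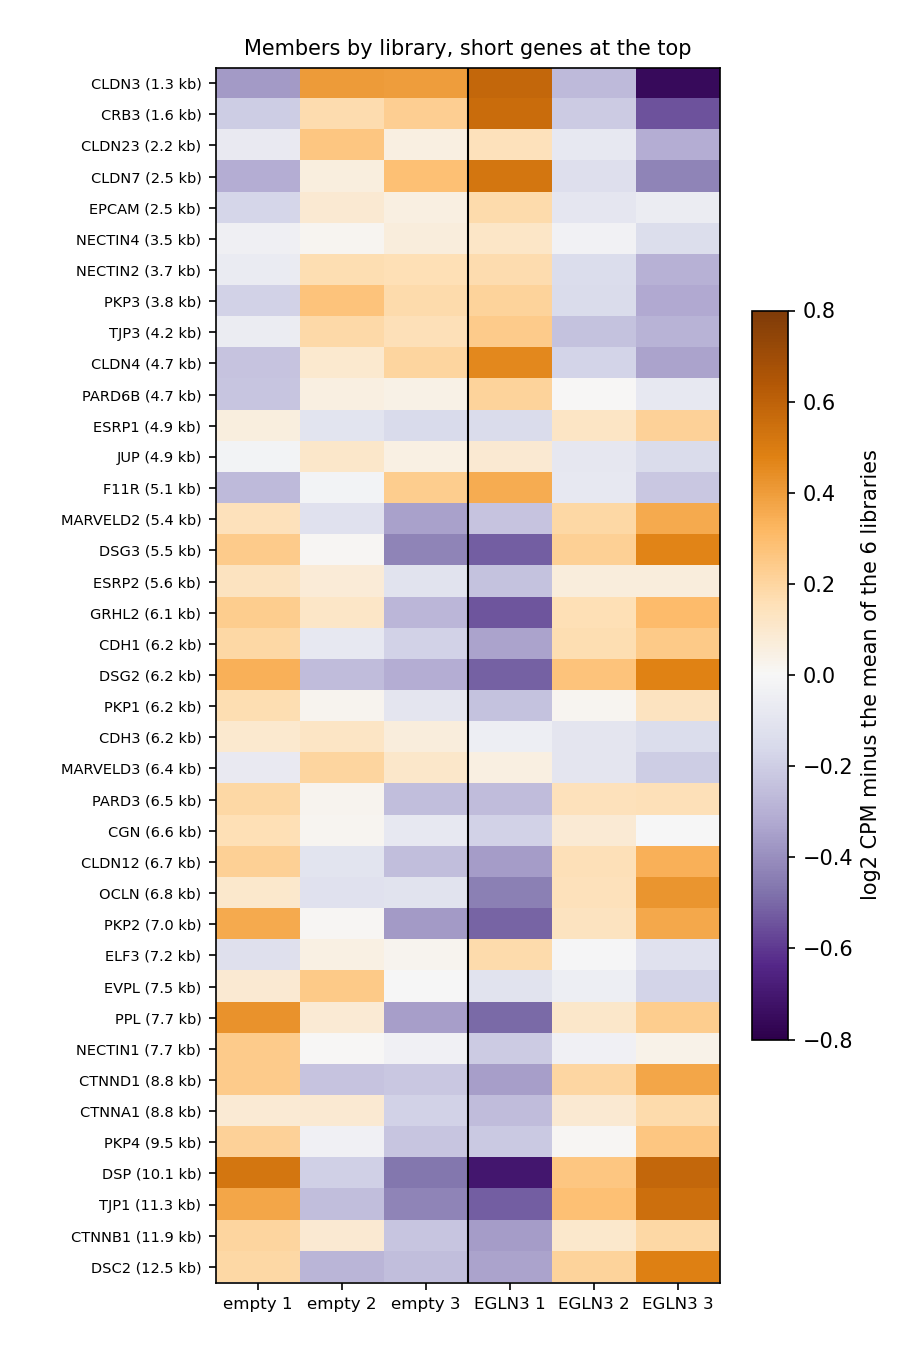
Log2 CPM of the 39 tested members minus each gene's mean over the 6 libraries (colour scale), with genes in rows ordered by summed exon length and libraries in columns. Short genes such as CLDN3, CRB3 and CLDN7 are high in EGLN3 replicate 1 and low in EGLN3 replicate 3, and long genes such as DSP, TJP1 and DSC2 show the reverse.

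Replicate 1 differed from replicates 2 and 3 in opposite ways in the 2 groups. In 22 of the 39 members it was lower within EGLN3 and higher within controls, and in 16 the reverse, while CDH3 was the 1 member with the same sign in both; over all tested genes 42.7% and 42.2% had these combinations. The split among members followed gene length and, somewhat less closely, GC content. Of the 13 tested members under 5 kb of summed exons, 12 were higher in EGLN3 replicate 1 than in replicates 2 and 3, the exception being ESRP1. Of the 12 members of 7 kb or more, 10 were lower there, and ELF3 and EVPL were not. The 14 between these lengths held 11 that were lower. Across the 39 members Spearman's rho between length and the difference within EGLN3 was -0.71, and 0.73 for the difference within controls, beside -0.43 and 0.43 across all tested genes. These are descriptions across genes that share the same 6 libraries, and genes are not independent replicates. Desmosomal genes, 8 of 11 of which were lower in EGLN3 replicate 1 and higher in control replicate 1, are mostly long, and 4 of the 5 tested claudins, which went the other way, are short. Some members of unlike length in these roles had the opposite sign. Within EGLN3 the difference was 0.45 for PKP3 (3787 bases) and 0.21 for JUP (4942 bases), the desmosomal genes under 5 kb. It was -0.60 for CLDN12 (6741 bases), a claudin of the middle length class. EVPL, a desmosomal gene of 7510 bases, did not follow length, at 0.005. PKP3, JUP and CLDN12 also differ in GC content, at 66.8%, 61.5% and 38.1%. GC content gave rho of 0.66 within EGLN3 and -0.58 within controls across the same 39 members, and length and GC content were not separated here. EGLN3 replicate 1 was also the EGLN3 library with the fewest EGLN3 counts, and the part of that level in these differences was not tested.

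**Figure D4:**
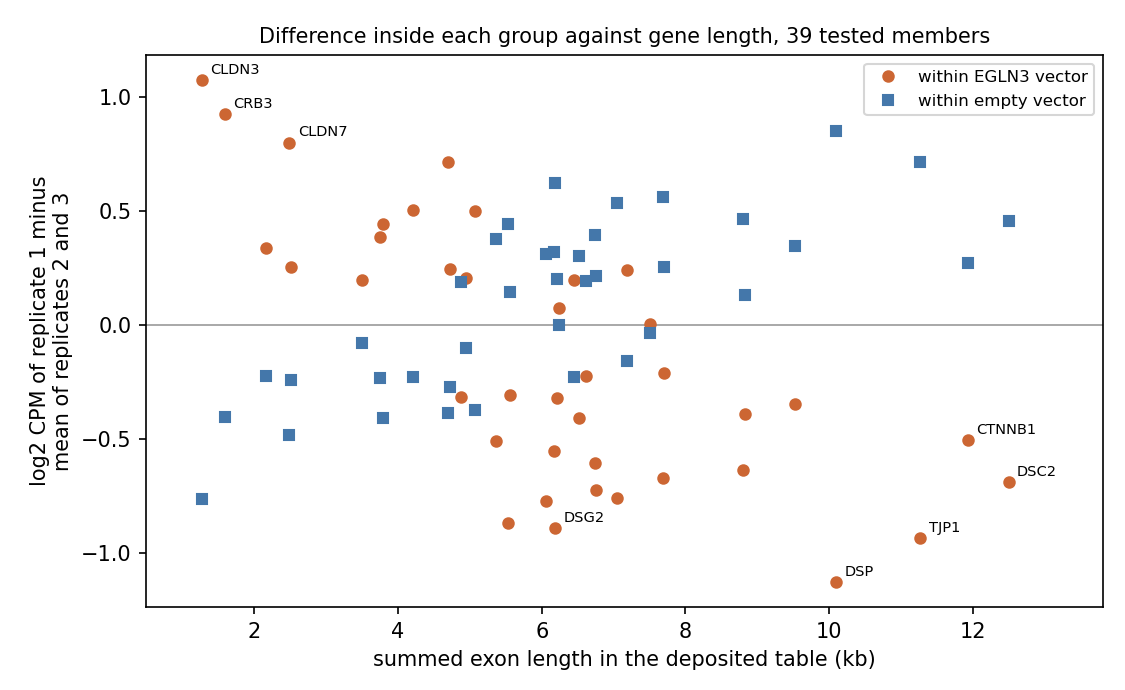
Log2 CPM of replicate 1 minus the mean of replicates 2 and 3, within the EGLN3 group (orange circles) and within controls (blue squares), against summed exon length in kb for the 39 tested members. The orange values run from 1.07 for CLDN3 to -1.13 for DSP, and the blue values from -0.76 for CLDN3 to 0.85 for DSP.

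The sign of the group difference followed GC content. Of 19 tested members with under 50% GC in their longest transcript, 17 had a positive log2 fold change, and of 20 with 50% or more, 17 had a negative one. Over all tested genes the share with a positive value was 71.1% under 50% GC and 30.3% above. DSC2, at 38.9% GC, had the highest value, and CLDN3, at 69.2%, and EVPL, at 65%, the lowest. Spearman's rho between GC content and the log2 fold change was -0.84 across the 39 members and -0.48 across all tested genes. In the corrected fit, which removes such trends by construction, rho was -0.21 across the members, with 12 of 19 and 11 of 20 above 0. EVPL moved from -0.22 to -0.06, whereas CDH3, at 54.1% GC, moved from -0.19 to -0.13.

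**Figure D5:**
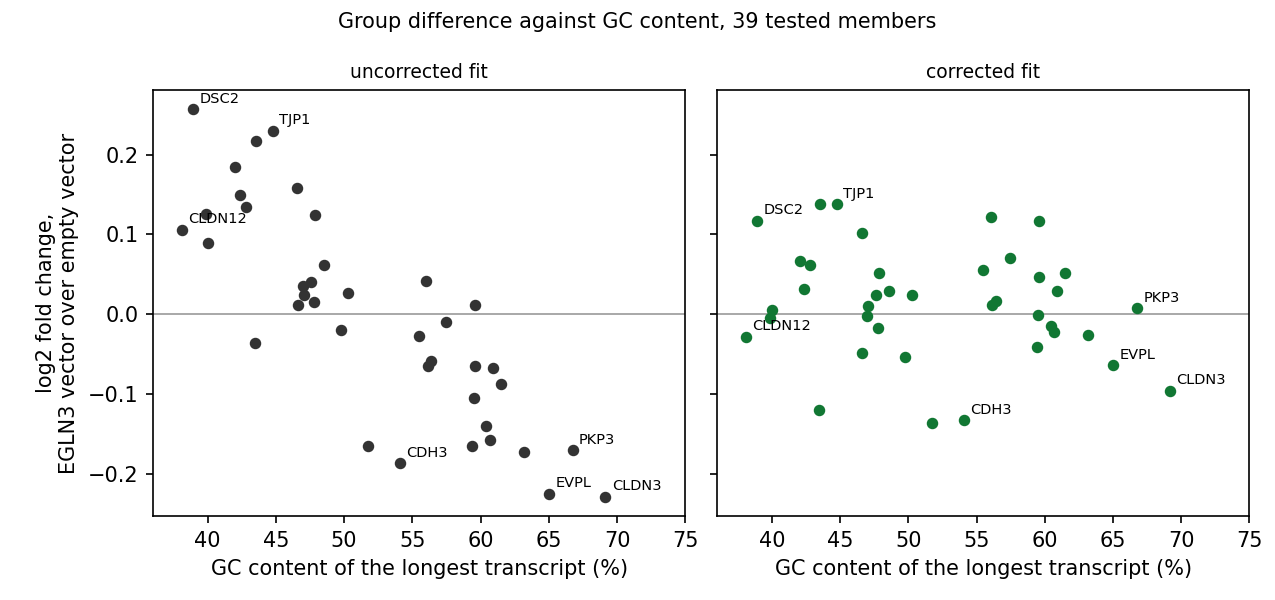
Log2 fold change of EGLN3 over empty plasmid against the GC content of the longest GENCODE transcript for the 39 tested members, in the uncorrected fit (left) and the corrected fit (right). In the uncorrected fit values run from 0.26 for DSC2 at 38.9% GC to -0.23 for CLDN3 at 69.2% GC, and in the corrected fit they lie between -0.14 and 0.14.

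Promoter windows are shown for members at both ends of the replicate 1 difference within EGLN3. Known repressors of junction genes can bind E-boxes, but binding was not measured, and any part of it in this variation was not tested. Among tested members with a single RefSeq window of 300 bases (250 before to 50 after the start, GRCh38.p14), DSP and DSG2 were lowest and CLDN3 and CRB3 highest in EGLN3 replicate 1 relative to replicates 2 and 3. The windows lie at chr6:7541421-7541720 (plus strand) for DSP, chr18:31497927-31498226 (plus strand) for DSG2, chr7:73770221-73770520 (minus strand) for CLDN3 and chr19:6464021-6464320 (plus strand) for CRB3. Capitals mark the E-box letters CACCTG on either strand (CAGGTG on the other), and all sequences run 5′ to 3′ on the gene's strand.
DSP: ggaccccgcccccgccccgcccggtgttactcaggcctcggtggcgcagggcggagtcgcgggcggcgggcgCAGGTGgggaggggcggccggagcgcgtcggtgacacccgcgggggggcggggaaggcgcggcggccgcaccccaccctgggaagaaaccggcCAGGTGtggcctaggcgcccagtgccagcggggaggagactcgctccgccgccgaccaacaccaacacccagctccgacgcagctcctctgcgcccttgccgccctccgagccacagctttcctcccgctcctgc
DSG2: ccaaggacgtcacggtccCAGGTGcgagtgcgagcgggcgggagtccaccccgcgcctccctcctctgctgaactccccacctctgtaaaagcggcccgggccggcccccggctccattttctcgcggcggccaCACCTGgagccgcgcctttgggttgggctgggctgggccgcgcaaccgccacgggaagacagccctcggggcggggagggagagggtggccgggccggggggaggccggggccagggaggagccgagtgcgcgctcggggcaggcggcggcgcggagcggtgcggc
CLDN3: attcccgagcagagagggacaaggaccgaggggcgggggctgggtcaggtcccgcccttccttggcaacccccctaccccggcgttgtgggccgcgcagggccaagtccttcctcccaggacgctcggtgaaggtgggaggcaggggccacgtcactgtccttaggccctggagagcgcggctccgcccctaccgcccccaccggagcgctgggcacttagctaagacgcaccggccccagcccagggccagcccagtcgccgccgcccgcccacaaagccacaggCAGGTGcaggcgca
CRB3: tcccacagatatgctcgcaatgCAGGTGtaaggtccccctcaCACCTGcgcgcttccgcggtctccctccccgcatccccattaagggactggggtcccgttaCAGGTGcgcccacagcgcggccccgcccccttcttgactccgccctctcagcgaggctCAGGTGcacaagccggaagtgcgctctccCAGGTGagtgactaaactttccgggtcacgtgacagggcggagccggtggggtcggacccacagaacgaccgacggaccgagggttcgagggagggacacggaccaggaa

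DSP and DSG2 each held 2 such matches, CLDN3 held 1 and CRB3 held 5. Any part of these letters in the replicate 1 difference was not tested. Of 40 windows available for 26 members, 14 windows of 13 members held the E-box letters, against 20.6% of all 35116 windows, and 0 held the grainyhead letters AACCGGTT, against 0.134% of all. A match is a run of letters and not a bound site. The GC content of the windows was 77% for DSP, 76.7% for DSG2, 72% for CLDN3 and 65.7% for CRB3, unlike the order of GC content in their transcripts, at 47.9%, 42%, 69.2% and 60.9%.

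Most listed repressors of junction genes were low. Of 14, 10 averaged under 1 FPKM in both groups, among them SNAI2, ZEB1 and ZEB2, and TWIST2 had 0 counts. TCF3, an E-box factor found in most tissues, was the highest at 18.8 FPKM in controls and 16.6 FPKM with EGLN3. SNAI1 measured 4.19, 4.21 and 3.95 CPM in controls and 4.16, 4.15 and 4.25 CPM with EGLN3, a log2 fold change of 0.02 (SE 0.16). TWIST1 measured 4.65, 5.75 and 5.9 CPM against 5.94, 3.97 and 4.81 CPM. Of the 7 repressors tested, 0 were called in either fit, beside 0.00636% (uncorrected) and 0.96% (corrected) of all tested genes. The list's median log2 fold change was 0.02 beside 0.01 over all tested genes. The list's summed level lay between 26.2 and 28.9 FPKM in controls and between 23 and 29.9 FPKM with EGLN3.

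Further genes of the same structures were also not called without correction. Of 60 other junction genes in the table, 40 were tested, 0 were called in the uncorrected fit (edgeR, 0 also at an unadjusted p under 0.05), and the median log2 fold change was 0.04. Over all tested genes these shares were 0.00636% and 1.11%. The corrected fit called 0.96% of all tested genes, 0.636% lower and 0.324% higher, so the small counts below say little about these lists. In the corrected fit 1 was called lower, CADM4, an immunoglobulin-like adhesion molecule, at -0.20 (SE 0.05; edgeR, adjusted p = 0.034), and 0 higher. CADM4 measured 166.1, 192.5 and 192.2 CPM in controls and 187.8, 134.4 and 119.5 CPM with EGLN3, so its groups overlapped. Of 28 other epithelial regulators, 25 were tested and 0 were called in either fit. Their medians were -0.03 in the uncorrected and 0.04 in the corrected fit. Among the markers, the extracellular matrix protein FN1 was called lower in the corrected fit at -0.24 (edgeR, adjusted p = 0.042), with overlapping groups of 59.6 to 124.7 CPM in controls and 49.2 to 107.1 CPM with EGLN3. The intestinal mucin MUC13 was called higher there at 0.58 (edgeR, adjusted p = 0.0043), with 11.2, 12.3 and 13.1 CPM in controls and 19.4, 16.2 and 20.4 CPM with EGLN3, without overlap.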

How the data were processed

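Per the labels' protocols, RNA was harvested with Trizol and libraries followed Illumina's usual method. Tools listed without roles in the submitters' processing notes are DESeq2 1.20.0, featureCounts 1.5.0-p3 and HISAT2 2.0.5, with the build hg38. Annotation and strandedness are not stated in the sources used here. The authors deposited raw whole-number counts per gene. The deposited FPKM values equal counts divided by exon length and by 1 factor per library, namely the library's DESeq2 size factor multiplied by the totals' geometric mean, so they carry scaling between libraries.

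Counts of all 58735 genes were filtered with filterByExpr (15726 kept), scaled by TMM (factors 0.9187 to 1.059) and tested with edgeR 4.0.16 (quasi-likelihood, robust, no covariate) in R 4.3.3. Benjamini-Hochberg adjustment ran over all tested genes, and an adjusted p under 0.05 was a call. SEs are the log2 fold change divided by the square root of F. CPM carry the TMM scaling, and differences within groups use log2 CPM with a prior count of 2. Totals of 15157265 to 16767383 make 3 counts 0.179 to 0.198 CPM before TMM scaling. Replicate pairs had a chi-square per degree of freedom of 8.97 to 117, so none agreed within sampling noise. The corrected fit used 1 surrogate variable (svaseq, sva 3.50.0) and splines of 5 degrees of freedom on GC content (GENCODE 29, 99.96% of tested genes) and length, with 3 residual degrees of freedom against 4. Alternatives were DESeq2 1.42.0, limma 3.58.1 (voom, and on log2 FPKM), other scalings and filters, a replicate block and leaving out libraries.

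Members and lists were chosen with earlier results of these data known. Values in every library are given for the 2 members of each role with the highest FPKM, the 2 with the smallest p, those called or not overlapping, CDH1 and EPCAM; DSP, TJP1 and DSG2 were added after their values were seen. Both edgeR fits were first run on simulated counts with known changes. That simulation had no GC trend, length trend or hidden factor, and less spread between replicates than the uncorrected fit estimated. It therefore does not show how the fits handle such variation in these libraries. Promoter windows are from RefSeq, GRCh38.p14.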

Additional observations from a re-analysis of the deposited data

How the results depend on the processing

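The 18 fits without a surrogate variable (the reported one, DESeq2, limma-voom, other scalings and filters, log2 FPKM, the replicate block, each library left out, and GC and length trends alone, chosen after seeing the data) called 0 genes in 9 cases and 1 gene, EGLN3, in 9, so their 0 members called says nothing about stability. With a surrogate variable, members called were 0 in the corrected fit, in its limma-voom form and without each library, and 2 (CDH3 and EVPL) with the surrogate variable alone. The median log2 fold change of the members lay between -0.068 and 0.047 over the fits without 1 library. The sign of 25 of 39 members changed in at least 1 of the 6 uncorrected fits without 1 library, and that of 18 in the corrected ones; CDH3 stayed between -0.20 and -0.16. With the replicate number as a block the count was 0 and the median -0.03. Deviations of same-numbered libraries from their group means correlated at -0.79, -0.18 and -0.67, and 0 of 3 control libraries correlated best with their own number. The leading principal component held 70% of the variance, so these correlations cannot show whether same-numbered libraries shared a culture. Depth limits DSC3, CLDN1, CLDN2, CLDN18 and CDH17, which had at most 14 counts per library.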
